A study of Mus musculus with 48 samples.

Results

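Expression of 10 genes was followed over the day in subcutaneous white adipose tissue (sWAT): 8 heat shock genes (Hspa1a, Hspa1b, Hsph1, Dnajb1, Hsp90aa1, Hspa8, Hspd1 and Hsf1) and 2 cold-inducible RNA-binding genes (Cirbp and Rbm3). They were taken by symbol from the 54532 genes of the count table, as transcripts that could report daily body temperature under ad-lib and twice-a-night (TAN) feeding. Coordinates of the genes in the deposited tables (GRCm38) place Hspa1a at chr17:34969190-34972156 and its near copy Hspa1b beside it at chr17:34956436-34959238, Hsph1 at chr5:149614287-149636376, Dnajb1 at chr8:83608193-83612653, Hsp90aa1 at chr12:110690605-110702728 and Hspa8 at chr9:40800984-40810087. Hspd1 lies at chr1:55077835-55088243, Hsf1 at chr15:76477422-76501913, Cirbp at chr10:80165985-80172786 and Rbm3 at chrX:8138975-8145880. The bulk RNA-seq covered 2 diets at 6 labelled times with 4 libraries per group, 48 libraries in all. The mice were male C57BL/6 animals (C57BL/6J in the study), 8 months old, with no transgene, mutation or drug named in the labels. Ad-lib mice always had food, whereas TAN mice were given food only in a pair of windows at night. By the labels, 12AM and 8AM each came shortly after a feeding window, and 4AM lay between the windows. Whether meals or body temperature set the daily patterns below was not tested. Lights were on between 8AM and 8PM, and the study's legends give regular chow for these mice. The study names thermoneutral housing for a respirometry cohort and ambient temperature for the mice of its serum time course. It does not state the housing temperature for these libraries. The labels number the libraries without naming animals, so p-values measure the spread between these libraries.

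Heat shock proteins are chaperones that fold, hold or refold other proteins, and heat shock factor 1, encoded by Hsf1, binds heat shock elements (inverted repeats of the letters GAA and TTC) to raise their transcription when cells are warmed or stressed. CIRBP and RBM3 are small glycine-rich RNA-binding proteins whose transcripts rise on mild cooling and fall on warming. Body temperature in mice is higher in the dark, active phase than in the light phase, and the daily temperature cycle is known to move transcripts of both families in opposite directions in peripheral tissues.

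Total counts ranged from 15636378 to 29913310 per library, and 19977 genes, all 10 members among them, passed the filter on low counts. Values below are CPM, counts scaled to library sizes corrected by trimmed mean of M values. Markers of adipocytes were present in every library, with a summed level of 9125 to 69721 CPM. The series text names a stromal vascular fraction, which would lack adipocytes, so the libraries are treated here as whole sWAT. The labelled times need care. Another listing of the same 48 libraries, in FPKM, matched by value over 960 genes, gives the same diet and replicate numbers but times 12 h away from the labels in 48 of 48 libraries. Times here are the labels, under which Nr1d1, a clock gene known to peak in the light phase, was highest at 4PM in both diets, whereas Arntl was highest at 8AM. Ad-lib and TAN groups hold the same libraries under either listing, so a comparison of diets is not touched by the 12 h.

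Some libraries stood apart. In ad-lib at 4AM, libraries 1 and 3 had 54.5 and 69.9 CPM of Nr1d1 against 7.44 and 4.62 CPM in libraries 2 and 4. They were not alike in Dbp, another clock gene, at 69.1 CPM in library 1 and 10.3 CPM in library 3. Libraries 2 and 4 had 13.3 and 16.8 CPM of Dbp. Library 3 also had 6002 CPM of summed skeletal muscle markers, the highest of all libraries, and 10.9 CPM of summed lymphocyte markers. In TAN at 8PM, libraries 1 and 2 had 890 and 551 CPM of Adipoq, the adipocyte hormone adiponectin, against 3782 and 6395 CPM in libraries 3 and 4. The summed level of 10 lymphocyte markers ran from 9.24 to 2670 CPM over all libraries, and reached only 338 CPM at most in TAN at 4PM against at least 915 CPM in ad-lib at 4PM. At 12AM it was 1407, 11.4, 372 and 14.6 CPM in the TAN libraries against 933 to 1219 CPM in ad-lib. The summed adipocyte markers at 12AM had a median of 54876 CPM in TAN and 33389 CPM in ad-lib. In bulk tissue, fewer cells of a type and less RNA per cell cannot be told apart. Results resting on the pairs of libraries in ad-lib at 4AM and in TAN at 8PM are given with and without them. The part of lymphocyte RNA in the results was not tested beyond a fit with the mean log2 level of those markers as a covariate.

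The promoters that could be read are shown first, because the letters of a heat shock element can be seen in them. RefSeq (GRCm38.p6) windows of 250 bases before to 50 bases after a start site were found for 6 of the 10 members, and those of Hsp90aa1, Hspa8, Hsf1 and Rbm3 were not analysed here. Below, capitals mark the GAA and TTC units of a heat shock element pair (GAANNTTC or TTCNNGAA, both strands searched) and the letters TCCCCGCC or their reverse complement, an octamer known as the mild-cold response element of Cirbp. The lines run 5′ to 3′ on the strand of the gene and end at the base before the start site, at chr17:34972157-34972306 and chr17:34959239-34959388 (both minus strand), chr5:149636337-149636486 (minus), chr1:55087933-55088082 (minus, the downstream of its start sites), chr8:83608025-83608174 (plus) and chr10:80167589-80167838 (plus).
Hspa1a: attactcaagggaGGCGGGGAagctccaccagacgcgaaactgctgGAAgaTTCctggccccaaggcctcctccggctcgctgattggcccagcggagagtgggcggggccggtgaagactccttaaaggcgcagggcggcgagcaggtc
Hspa1b: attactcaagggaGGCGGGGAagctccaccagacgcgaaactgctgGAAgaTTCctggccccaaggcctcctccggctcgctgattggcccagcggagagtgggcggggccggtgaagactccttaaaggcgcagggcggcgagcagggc
Hsph1: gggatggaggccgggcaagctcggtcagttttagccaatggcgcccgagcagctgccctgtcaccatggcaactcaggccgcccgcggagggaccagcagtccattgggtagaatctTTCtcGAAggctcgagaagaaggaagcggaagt
Hspd1: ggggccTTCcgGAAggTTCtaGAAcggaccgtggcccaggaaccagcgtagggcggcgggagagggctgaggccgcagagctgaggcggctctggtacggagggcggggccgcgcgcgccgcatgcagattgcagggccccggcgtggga
Dnajb1: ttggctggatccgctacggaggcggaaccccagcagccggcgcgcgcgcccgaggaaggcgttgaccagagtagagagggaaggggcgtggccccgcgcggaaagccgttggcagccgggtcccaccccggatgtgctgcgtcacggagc
Cirbp: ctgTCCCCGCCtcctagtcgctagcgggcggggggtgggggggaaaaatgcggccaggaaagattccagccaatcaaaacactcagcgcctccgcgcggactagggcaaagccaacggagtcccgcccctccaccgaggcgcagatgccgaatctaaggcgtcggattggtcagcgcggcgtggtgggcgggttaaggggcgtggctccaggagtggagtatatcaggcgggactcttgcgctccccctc
A pair of units stood in 1 or more windows of 4 of these 6 genes (Hspa1a, Hspa1b, Hsph1 and Hspd1). The 6 genes had 10 windows in all. Of the 32817 single mouse promoter windows 15.1% held a pair, a share per window that is not comparable to a count per gene. Hspd1 had overlapping triples from base -144 to base -127 counted from the start site shown, and the window of its other start, further upstream, held no match. Of all windows, 0.603% had 3 alternating units in a row. Hsph1 had such a triple, TTCTGGAAAGTTC, at bases 37 to 49 after the start site shown. The octamer lay at bases -247 to -240 of Cirbp and, in reverse, at bases -137 to -130 of Hspa1a and Hspa1b, and 5.38% of all windows held it. The window of the other start of Cirbp held no match. The stretches of Hspa1a and Hspa1b differed at 1 of 150 bases. No match lay in the stretch of Dnajb1, and the window of its other start held the octamer in reverse at bases 35 to 42. These matches are letters only, and binding was not measured.

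Levels between members were compared per length, in the FPKM means that the authors deposited for each group. Hspa8, the constitutive cytosolic HSP70, was the most abundant, with group means from 190 to 754 FPKM and a median of 341 FPKM. Hspd1, the mitochondrial chaperonin HSP60, followed with a median of 134 FPKM, Hsp90aa1, the inducible cytosolic HSP90, with 78.4 FPKM and Rbm3 with 53.6 FPKM. Cirbp had a median of 32.7 FPKM, Dnajb1, a J-domain partner of HSP70, 14.2 FPKM, and Hsph1, the HSP110 exchange factor of HSP70, 5.09 FPKM. Hsf1 had 2.24 FPKM, and the stress-inducible HSP70 genes Hspa1b and Hspa1a had 0.708 and 0.310 FPKM. The stress-inducible HSP70 genes were thus the lowest of the members and the constitutive HSP70 gene the highest.

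Hspa8 followed a large daily swing in TAN. At 12AM the 4 TAN libraries held 3156, 3505, 3260 and 3311 CPM, and at 4PM they held 978, 663, 987 and 710 CPM. Every TAN library at 12AM lay above every TAN library of the other times, whose highest was 2321 CPM. The level varied over the day in TAN by 1.99 on the log2 scale between its highest and lowest fitted group (edgeR adjusted p = 1.06e-04). The order of TAN means ran from 12AM (3308 ± 146 CPM, SD, n = 4) over 8AM, 8PM, 4AM and 12PM to 4PM (835 ± 172 CPM), and below 12AM each neighbour in that order overlapped the next. In ad-lib the 12AM libraries held 2000, 3487, 2336 and 2381 CPM and the 4PM libraries 1047, 904, 1086 and 978 CPM. Those groups did not overlap either, but the variation over the day in ad-lib did not pass (range 1.35 log2, edgeR adjusted p = 0.117). The ad-lib libraries at 4AM were split, with 971 and 910 CPM in libraries 1 and 3 and 2908 and 2596 CPM in libraries 2 and 4. Without libraries 1 and 3 the ad-lib variation of Hspa8 passed (range 1.45 log2, edgeR adjusted p = 0.00104), as it did without either alone (edgeR adjusted p = 0.0390 and 0.0406).

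**Figure D1:**
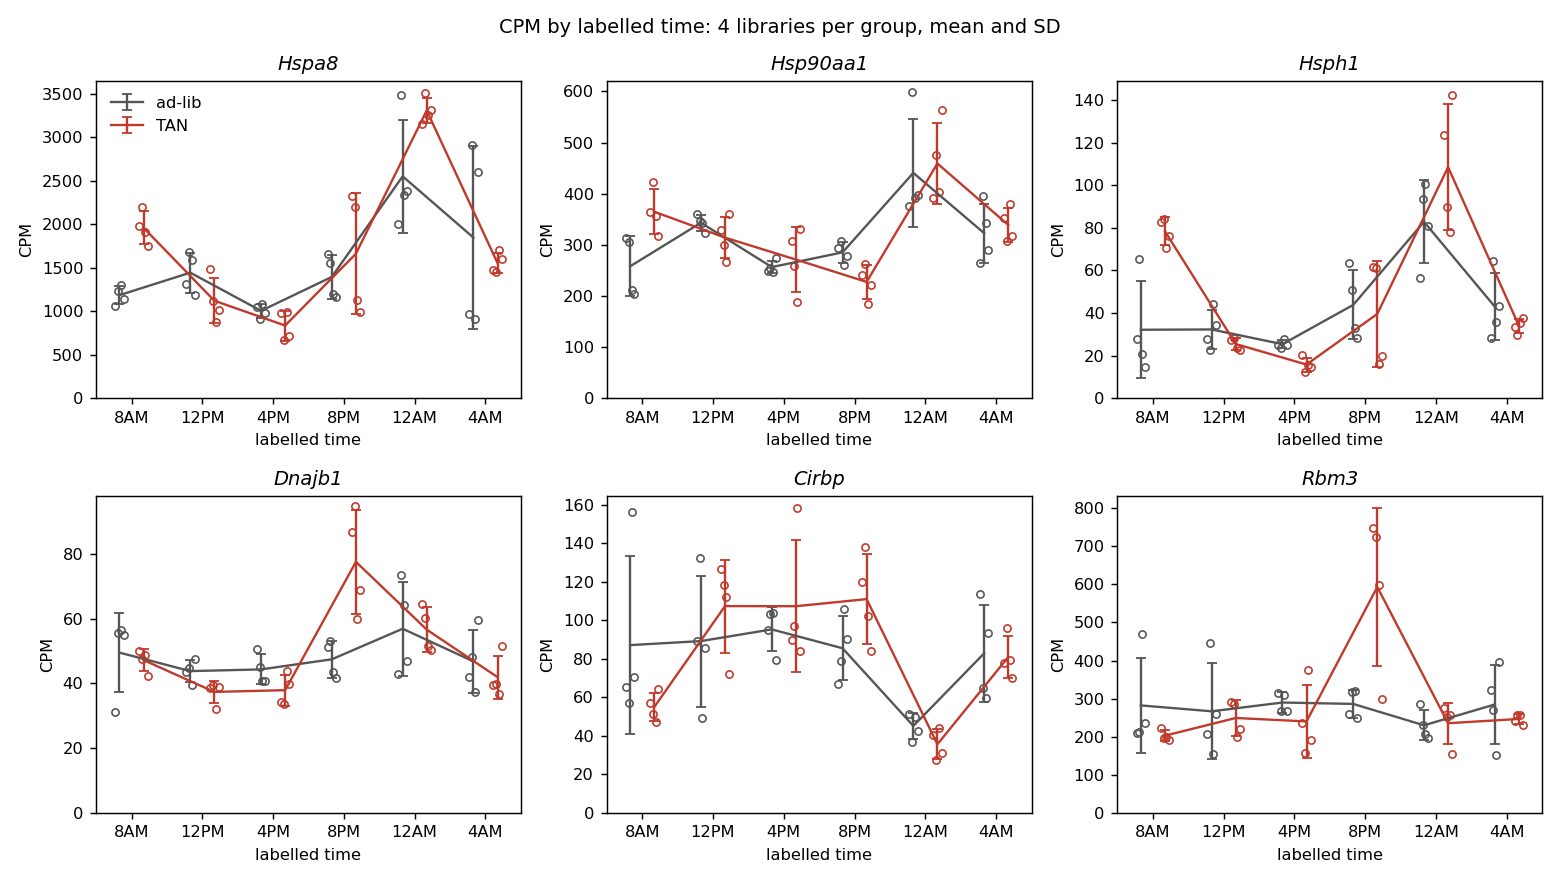
CPM (y axes, from 0) of 6 members by labelled time (x axes), with ad-lib in grey and TAN in red; open circles are libraries, and lines with bars join group means ± SD (n = 4). Hspa8, Hsp90aa1 and Hsph1 were highest at 12AM in both diets, where Cirbp was lowest (45.1 CPM in ad-lib and 35.6 CPM in TAN), and Rbm3 and Dnajb1 were highest at 8PM in TAN.

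Hsph1 moved most. Its TAN libraries held 124, 90.1, 78.2 and 142 CPM at 12AM, 83.0, 84.3, 70.5 and 76.0 CPM at 8AM and 20.3, 12.4, 15.7 and 14.7 CPM at 4PM. The 12AM and 8AM libraries overlapped each other and lay above all other TAN libraries, and the 4AM (29.7 to 37.5 CPM), 12PM (22.5 to 28.4 CPM) and 4PM libraries followed without overlap. The range over the day in TAN was 2.78 log2, a 6.89-fold difference between fitted groups (edgeR adjusted p = 4.52e-06). At 8PM the TAN libraries were split, at 61.4 and 61.0 CPM in libraries 1 and 2 and 16.1 and 19.7 CPM in libraries 3 and 4. In ad-lib the 12AM libraries held 56.3, 93.8, 101 and 80.8 CPM and the 4PM libraries 25.2, 23.4, 28.0 and 24.8 CPM, again apart, while the other ad-lib times overlapped them or each other. The ad-lib range of 1.71 log2 had an edgeR adjusted p of 0.0952, which was 0.00669 without ad-lib 8AM replicate 2 and 0.0117 without TAN 8PM libraries 1 and 2.

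Hsp90aa1 was also highest at 12AM. The TAN libraries held 392.5, 476, 404 and 564 CPM at 12AM and 242, 262, 184 and 221 CPM at 8PM, with no overlap between these times (range 1.01 log2, edgeR adjusted p = 0.00230). In ad-lib the 12AM libraries, at 375, 600, 391 and 397 CPM, lay above all 12PM libraries (323 to 360 CPM), the next time in order, but overlapped the 4AM libraries (264 to 395 CPM). The ad-lib variation did not pass (0.78 log2, edgeR adjusted p = 0.146).

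Dnajb1 differed from these chaperones in its time of highest level. In TAN the 8PM libraries held 86.6, 94.8, 59.9 and 68.8 CPM and the 12AM libraries 64.5, 60.3, 51.5 and 50.2 CPM, and the lowest means were those of 4PM (37.9 ± 4.83 CPM, SD, n = 4) and 12PM (37.4 ± 3.47 CPM). The 8PM and 12AM libraries overlapped each other, and the 12AM libraries lay above those of 8AM, the next in order, by a gap of less than 1 CPM (50.2 against 50.1 CPM). The TAN range was 1.05 log2 (edgeR adjusted p = 2.68e-04), and it passed without 8PM libraries 1 and 2 too. Ad-lib means stayed between 43.8 and 56.9 CPM, and all neighbours in the ad-lib order overlapped (0.38 log2, edgeR adjusted p = 0.983).

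Hspd1 had its highest TAN mean at 12AM, with libraries at 366, 646, 540 and 680 CPM, and its lowest at 8PM, with 239, 224, 275 and 444 CPM. These groups overlapped through TAN 8PM library 4. The TAN variation passed narrowly (0.92 log2, edgeR adjusted p = 0.0353), and it did not pass without the 8PM libraries 1 and 2 (0.64 log2, edgeR adjusted p = 0.132), or with the mean log2 level of the lymphocyte markers (0.67 log2, edgeR adjusted p = 0.0579) or of the immediate early genes (0.73 log2, edgeR adjusted p = 0.0955) as a covariate. It also did not pass when any of 7 single TAN libraries was left out (replicate 1 of 4PM, replicates 1, 2 and 3 of 8PM, and replicates 2, 3 and 4 of 12AM), with edgeR adjusted p of 0.0521 to 0.104. Ad-lib means lay between 250 and 401 CPM. Exons of Hspd1 share 4.24% of their bases with Hspe1 on the opposite strand, and whether counting used strand is not stated.

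Hsf1 and the inducible HSP70 genes were low throughout. Hsf1 ranged from 6.40 to 26.1 CPM over the 48 libraries and did not pass in TAN (1.01 log2, edgeR adjusted p = 0.117) or in ad-lib (edgeR adjusted p = 1). Hspa1a had 0 to 3.19 CPM, with a count of 0 in 3 libraries, which allows up to 0.142 to 0.197 CPM there by counting error alone. Hspa1b had 0 to 5.29 CPM and 1 library at 0. Neither varied detectably at this depth, with edgeR adjusted p of 0.804 and 0.781 in TAN. Coding sequences of the pair, 1926 and 1929 bases long, differed by 10 base edits and shared a run of 638 bases, so reads could be split between them in the counting. Summing both into 1 gene changed none of the counts of members called. A further 19.01% of Hspa1a exon bases lie opposite Gm20481, whose median count was 0.

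**Figure D2:**
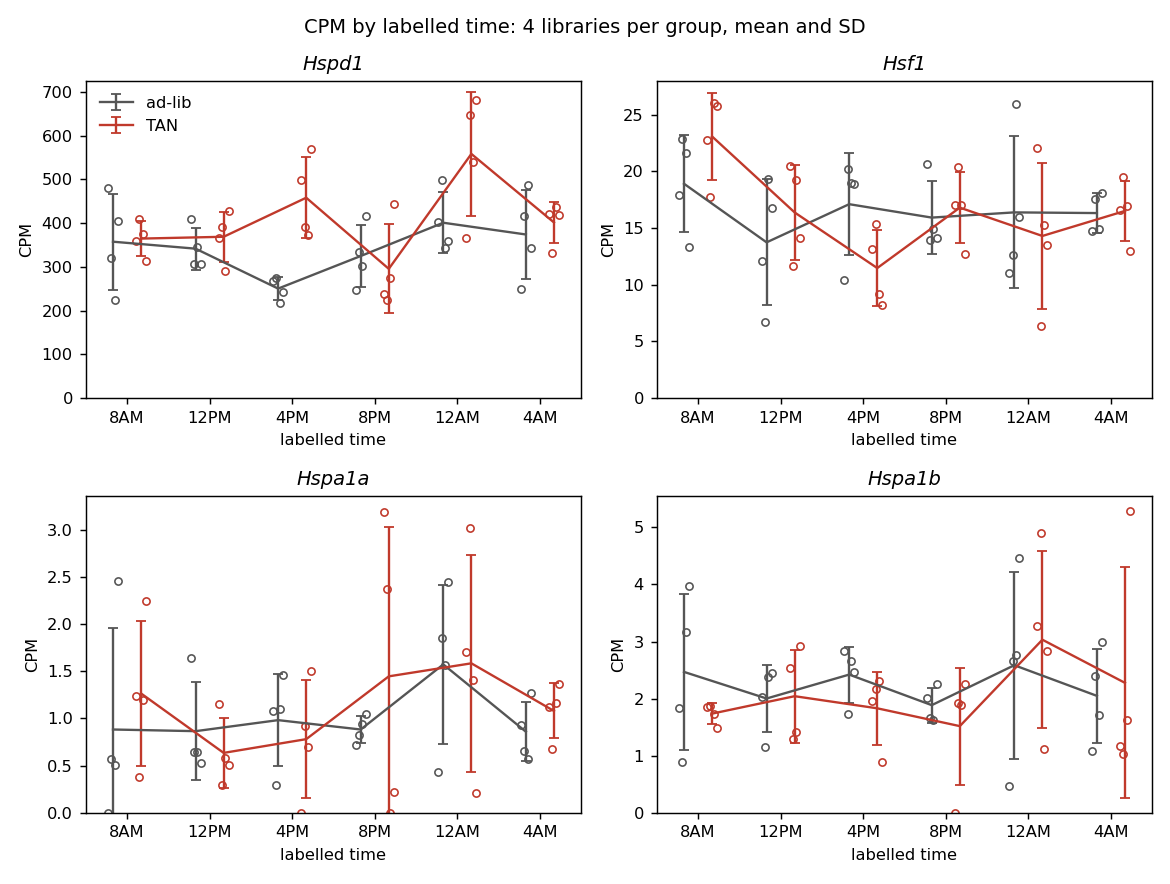
CPM (y axes, from 0) of Hspd1, Hsf1, Hspa1a and Hspa1b by labelled time (x axes), with ad-lib in grey and TAN in red; open circles are libraries, lines with bars join group means ± SD (n = 4). Hspd1 in TAN exceeded ad-lib at 4PM without overlap, and Hspa1a and Hspa1b reached at most 5.29 CPM.

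Cirbp was lowest at 12AM in both diets, the time at which the TAN means of Hspa8, Hsph1, Hsp90aa1 and Hspd1 were highest. Its TAN libraries held 40.4, 27.2, 43.8 and 30.9 CPM at 12AM, 56.8, 51.3, 47.2 and 64.3 CPM at 8AM and 77.6, 96.0, 79.5 and 70.1 CPM at 4AM. These times stepped up without overlap, and the 12PM, 4PM and 8PM libraries lay between 72.1 and 158 CPM, overlapping 4AM and each other. Its highest TAN mean was at 8PM (111 CPM), the time of the highest TAN mean of Dnajb1 (77.6 CPM). The TAN range was 1.64 log2, or 3.12-fold (edgeR adjusted p = 2.53e-04), and passed in 48 of 48 fits that each left out 1 library. In ad-lib the 12AM libraries held 51.5, 36.7, 49.7 and 42.4 CPM and lay below all 4AM libraries (59.7 to 113 CPM), with 1 library at 12PM, at 49.3 CPM, among them. The ad-lib range was 1.08 log2 and did not pass (edgeR adjusted p = 0.425), except with the mean log2 level of the lymphocyte markers as a covariate (edgeR adjusted p = 0.0269).

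Rbm3 differed from Cirbp by a single high time in TAN. At 8PM its TAN libraries held 749, 726, 599 and 299 CPM, and all other TAN libraries lay below these except 1 at 4PM, whose libraries held 237, 158, 374 and 191 CPM and overlapped 8PM library 4. At 12AM the TAN libraries held 275, 253, 258 and 156 CPM, and the lowest mean was that of 8AM (203 ± 14.0 CPM, SD, n = 4). The TAN range was 1.55 log2 (edgeR adjusted p = 0.00112), but it did not pass without libraries 1 and 2 at 8PM (1.15 log2, edgeR adjusted p = 0.113). Ad-lib means stayed between 230 and 290 CPM with all neighbours overlapping (edgeR adjusted p = 1).

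In sum over the members, 7 of 10 varied over the 6 times in TAN, where 23% of all tested genes did, and 0 of 10 in ad-lib, where 0.0551% did. Of the ad-lib tests, 4 had an unadjusted p under 0.05 (Hsph1, Hspa8, Hsp90aa1 and Cirbp), and limma voom called 0. These counts do not test whether the diets differed, which the interaction below does.

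A 24-h curve fitted to the group means gave each member a fitted peak. Such a curve has 1 high a day, so its peak need not be the time of the highest level. In TAN, 6 of 10 members passed (19.8% of all genes), 4 heat shock genes and both cold-inducible genes, with a median amplitude over the 10 members of 0.44 log2 against 0.40 over all genes. The curve of Hsph1 had an amplitude of 0.94 log2 and a peak 2.67 h after labelled midnight (edgeR adjusted p = 1.87e-04), and that of Hspa8 0.71 log2 and 1.83 h (edgeR adjusted p = 3.48e-04). Hsp90aa1 peaked at 4.47 h with an amplitude of 0.31 log2 (edgeR adjusted p = 0.00824). Dnajb1 peaked earlier, at 22.3 h, with 0.38 log2 (edgeR adjusted p = 0.00189). Thus the fitted peaks of the 4 heat shock genes lay within the labelled dark phase, from 8PM to 8AM, where 10.8% of all genes passed with such a peak. Cirbp peaked at 14.9 h with 0.59 log2 (edgeR adjusted p = 0.00137), in the light phase. Rbm3 peaked at 19.9 h with 0.50 log2 (edgeR adjusted p = 0.0103), close to labelled lights-off. Peaks between 8AM and 8PM, as of these 2 genes, were found for 9.01% of all genes. Leaving out each of the 48 libraries in turn moved the fitted TAN peaks of these 6 members over spans of 0.414 to 1.05 h, and all 6 stayed called in each of these fits. These spans do not show how well a single high describes the means. Without the TAN 8PM libraries 1 and 2, Rbm3 no longer passed (amplitude 0.36 log2, edgeR adjusted p = 0.0857).

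**Figure D3:**
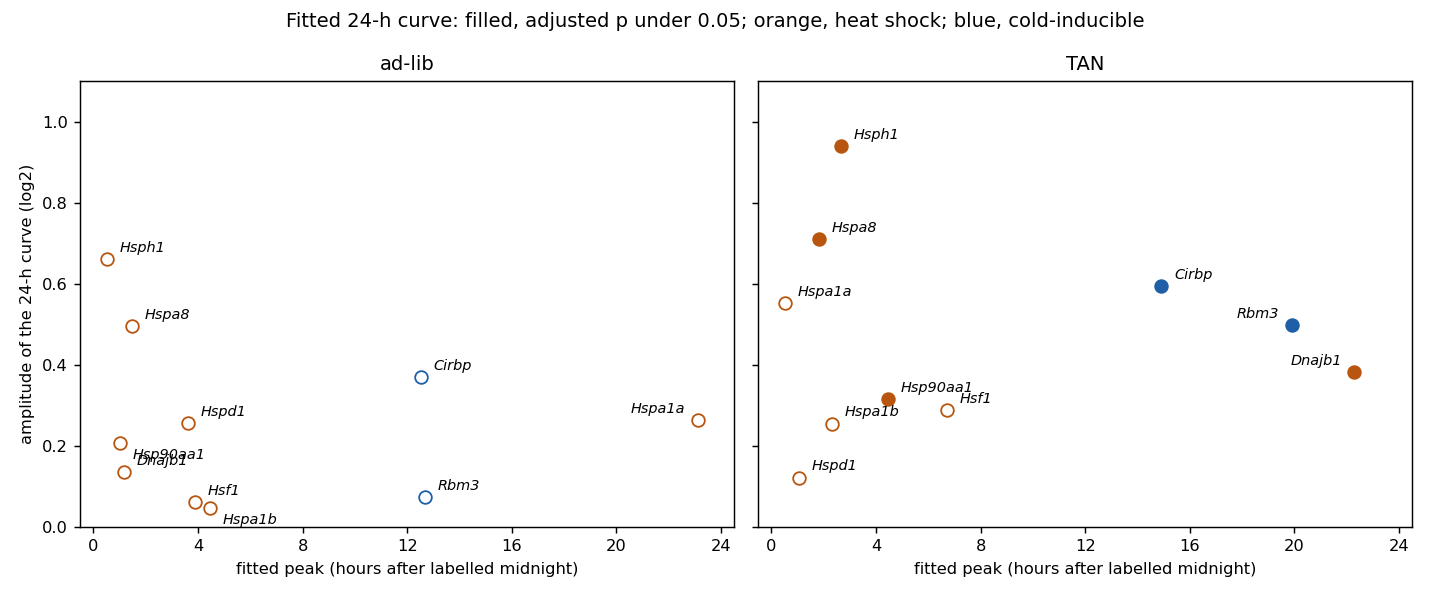
Amplitude of the fitted 24-h curve (y axis, log2) against its peak (x axis, hours after labelled midnight) for the 10 members in ad-lib and in TAN; orange points are heat shock genes, blue points Cirbp and Rbm3, and filled points passed an adjusted p of 0.05. In both diets the fitted peaks of Hsph1 and Hspa8 fell shortly after labelled midnight, with the largest amplitudes of the members. In ad-lib these amplitudes were 0.66 and 0.50 log2, and neither curve passed there. The fitted peak of Cirbp fell in the light phase (12.5 h in ad-lib, where it did not pass, and 14.9 h in TAN).

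In ad-lib 0 of 10 members passed the same test (0.0801% of all genes), with 5 at an unadjusted p under 0.05 and 0 called by limma voom. The fitted peaks were at 1.47 h for Hspa8, 0.527 h for Hsph1 and 12.5 h for Cirbp, with amplitudes of 0.50, 0.66 and 0.37 log2 and edgeR adjusted p of 0.159, 0.114 and 0.297. Without the ad-lib 4AM libraries 1 and 3, the curves of Hspa8 (0.66 log2, edgeR adjusted p = 0.00120) and Hsph1 (0.73 log2, edgeR adjusted p = 0.0289) passed in ad-lib. Both also passed without ad-lib 4AM replicate 1 alone (edgeR adjusted p = 0.0269 and 0.0309), and Hsph1 without ad-lib 8AM replicate 2 (edgeR adjusted p = 0.00790). The ad-lib peak of Rbm3 could not be placed, since it moved over 14.5 h when single libraries were left out. The test of a difference of the curve between the diets called 0 of 10 members (20.2% of all genes), with 3 at an unadjusted p under 0.05 (Rbm3, Dnajb1 and Hsph1) and 1, Hsph1, called by limma voom. The smallest adjusted p was that of Rbm3 (edgeR adjusted p = 0.0578). Over the alternatives it ran from 1.70e-04, with the lymphocyte markers as a covariate, to 0.194, without TAN 8PM libraries 1 and 2. So an adjusted p under the threshold in TAN alone does not show that the daily curve of a member differed between the diets.

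The ratio of Hspa8 to Cirbp, taken within each library, set a chaperone against a cold-inducible gene. On the log2 scale it was 6.28, 7.003, 6.21 and 6.74 in the TAN libraries at 12AM and 3.44, 2.77, 2.64 and 3.08 at 4PM. In ad-lib it was 5.28, 6.57, 5.55 and 5.81 at 12AM and 3.46, 3.13, 3.39 and 3.63 at 4PM. In each diet the 12AM libraries lay above those of 4PM without overlap. At 8AM the TAN libraries (4.76 to 5.42) lay above those of ad-lib (3.06 to 4.44). The ratio itself was not tested, and neither gene passed between the diets at 8AM (edgeR adjusted p = 0.682 for each). At 4AM the ad-lib libraries spread from 3.10 to 5.49, with the lower values in libraries 1 and 3, against 3.92 to 4.50 in TAN.

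The question of whether TAN feeding changed these genes at a given time was tested at each of the 6 labelled times. Of 60 combinations of member and time, 3 passed: Hspd1 at 4PM, and Dnajb1 and Rbm3 at 8PM. At 4PM 15.3% of all genes passed and 1 of 10 members, and at 8PM 11.7% and 2 of 10, so the members' counts were near the share of all genes. Genes higher in TAN, as these 3 were, made up 6.54% at 4PM and 3.76% at 8PM, and genes lower in TAN 8.77% and 7.91%. With an absolute log2 change above 1 asked for as well, 1 combination was left, Rbm3 at 8PM, and 10.4% of all genes at 4PM, 7.03% at 8PM and 0.135% at 12AM. Counts at 8AM, 12PM, 12AM and 4AM were 0 of 10 members by edgeR, with 4, 0, 1 and 0 members at an unadjusted p under 0.05, and 0.015%, 0.0901%, 0.15% and 0% of all genes. DESeq2 and limma voom each called 3 of the 60.

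Dnajb1 rose at 8PM. TAN libraries held 86.6, 94.8, 59.9 and 68.8 CPM and ad-lib libraries 51.4, 53.2, 43.5 and 41.7 CPM, and the groups did not overlap, as was so for 16.1% of all genes at 8PM. The log2 fold change was 0.71 (SE 0.18, edgeR adjusted p = 0.0119), and it passed in 48 of 48 fits that left out 1 library. Leaving out TAN libraries 1 and 2, the higher ones, left 0.44 log2 (edgeR adjusted p = 0.163). A fit of the 8PM libraries alone gave 0.73 log2, with an edgeR adjusted p of 0.110.

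Rbm3 rose at 8PM by 1.05 log2 (SE 0.29, edgeR adjusted p = 0.0195), from 259, 316, 319 and 249.2 CPM in ad-lib to 749, 726, 599 and 299 CPM in TAN. The groups overlapped through TAN library 4. Without TAN libraries 1 and 2 the difference was 0.65 log2 (edgeR adjusted p = 0.198). In a fit of the 8PM libraries alone it was 1.07 log2 (edgeR adjusted p = 0.132). Leaving out only ad-lib replicate 1, TAN replicate 1 or TAN replicate 2 left 0.9996 log2, 0.92 log2 and 0.94 log2 with edgeR adjusted p of 0.0552, 0.0599 and 0.0530. In TAN libraries 1 and 2 Cd3e, a T cell gene, was at 94.5 and 136 CPM against 25.9 and 1.24 CPM in the other TAN libraries, and the immediate early genes summed to 666 and 738 CPM against 359 and 299 CPM. Rbm3 passed with the mean log2 level of either gene list as a covariate. Cirbp, the relative of Rbm3, had a log2 fold change of 0.38 at 8PM (SE 0.26, edgeR adjusted p = 0.377).

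Hspd1 rose at 4PM by 0.87 log2 (SE 0.23, edgeR adjusted p = 0.0154), from 269, 273.5, 216 and 242 CPM in ad-lib to 498, 391, 373 and 570 CPM in TAN. The groups did not overlap, as for 30.6% of all genes at 4PM. The summed lymphocyte markers were at 9.24 to 338 CPM in these TAN libraries and at 915 to 1560 CPM in these ad-lib libraries, with adipocyte markers at 40640 to 68354 CPM against 18192 to 26551 CPM. Of the markers, 3 of 10 for lymphocytes passed as lower at 4PM (8.77% of all genes), with a median change of -3.63 log2 over the list. For adipocytes 2 of 10 passed as higher (6.54% of all genes), with a median of 1.06 log2. With the lymphocyte markers as a covariate the change of Hspd1 was 0.39 log2 (edgeR adjusted p = 0.404). That covariate follows the diets at this time, and with it 0 of 19977 genes passed at 4PM. The change of Hspd1 also missed the threshold without ad-lib replicate 3 (edgeR adjusted p = 0.0597) or TAN replicate 1 (edgeR adjusted p = 0.0544), and with the immediate early genes as a covariate (0.73 log2, edgeR adjusted p = 0.0591).

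**Figure D4:**
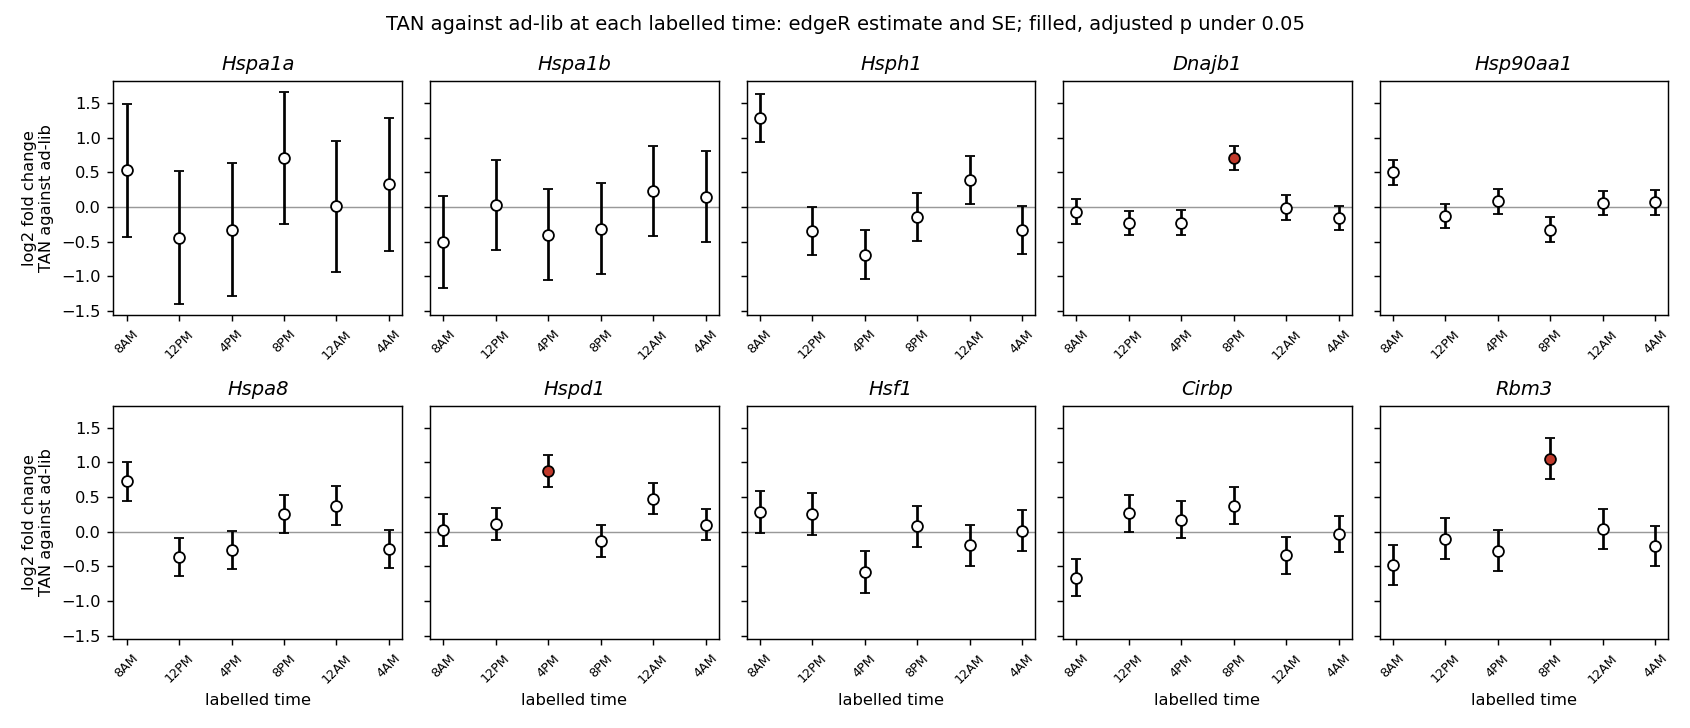
Log2 fold change of TAN against ad-lib (y axes; bars, SE of the edgeR fit) at each labelled time (x axes) for the 10 members; filled points passed an adjusted p of 0.05. The filled points are Dnajb1 at 8PM (0.71), Rbm3 at 8PM (1.05) and Hspd1 at 4PM (0.87), and Hsph1 had its highest value at 8AM (1.29) and its lowest at 4PM.

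At 8AM, the labelled end of the dark phase, some chaperones had separate groups without passing the test over all genes. This label also comes shortly after a feeding window of TAN. Hsph1 had 83.0, 84.3, 70.5 and 76.0 CPM in TAN against 27.8, 65.4, 20.7 and 14.7 CPM in ad-lib (log2 fold change 1.29, SE 0.35, edgeR adjusted p = 0.336). Ad-lib replicate 2 decided this call, since without it the difference was 1.87 log2 (edgeR adjusted p = 0.0199). Hspa8 had 1984, 2196, 1913 and 1744 CPM against 1065, 1233, 1300 and 1139 CPM (0.73, SE 0.28, edgeR adjusted p = 0.682), and Hsp90aa1 364, 422, 357 and 317 CPM against 313, 305, 212 and 203 CPM (0.50, SE 0.18, edgeR adjusted p = 0.659). For these 3 of 10 members the TAN libraries all lay above the ad-lib libraries, while 3.07% of all genes had groups apart at 8AM in either direction. At 12PM, 12AM and 4AM the groups of 0 of 10 members were apart, where those of 4.84%, 9.13% and 3.09% of all genes were. Cirbp had a log2 fold change of -0.67 (SE 0.27, edgeR adjusted p = 0.682) at 8AM, with TAN libraries at 47.2 to 64.3 CPM and ad-lib libraries at 56.8 to 156 CPM, which overlapped.

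The TAN effect of Hsph1 differed between times (edgeR adjusted p = 0.0469), the only 1 of 10 members to pass where 8.98% of all genes did. It ran from 1.29 log2 at 8AM to -0.69 at 4PM (SE 0.35, edgeR adjusted p = 0.162). The 4PM libraries again did not overlap, as for 30.6% of all genes (20.3, 12.4, 15.7 and 14.7 CPM in TAN against 25.2, 23.4, 28.0 and 24.8 CPM in ad-lib). In a fit of the 4PM libraries alone the edgeR adjusted p was 0.0234, and 4408 of 16196 genes passed. The lymphocyte and adipocyte marker levels given above for 4PM also differed between these groups. At 8PM the TAN effect of Hsph1 was -0.15 with all libraries and -1.30 without TAN libraries 1 and 2 (edgeR adjusted p = 0.0275). The effects spanned 1.97 log2 over the 6 times. The call was close to the threshold, held in 22 of 48 fits that left out 1 library (largest edgeR adjusted p = 0.0950), and did not pass with no filter on low counts (span 2.004 log2, edgeR adjusted p = 0.0620) or with the immediate early genes as a covariate (span 1.94 log2, edgeR adjusted p = 0.0860). Averaged over the 6 times, 0 of 10 members differed between the diets by edgeR (5.42% of all genes), with 1, Hspd1, at an unadjusted p under 0.05 (0.24 log2, SE 0.09, edgeR adjusted p = 0.112) and 0 called by DESeq2 or limma voom. Mean log2 fold changes of the 10 members lay between -0.13 and 0.24, with a median of 0.02 against -0.08 over all genes.

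Levels of the heat shock genes were related to those of Cirbp and Rbm3 over the 24 libraries of each diet (34 relations in all, log2 CPM, two-sided permutation tests with Benjamini-Hochberg adjustment over the 34). By Pearson's r 14 relations passed, 6 in ad-lib and 8 in TAN, and by Spearman's rho 10, 5 in each diet. With Cirbp, 4 heat shock genes passed by r in each diet (Hsph1, Hsp90aa1, Hspa8 and Hspd1), and Dnajb1, Hspa1a, Hspa1b and Hsf1 passed in neither, with r of -0.36 to 0.06. In ad-lib, Hsp90aa1 and Cirbp had r = -0.71 (permutation p = 1.30e-04, adjusted 8.84e-04) and rho = -0.70 (p = 2.80e-04, adjusted 0.00190). In TAN they had r = -0.81 and rho = -0.84, each with the smallest p that the permutations can give (1e-05, adjusted 3.40e-04). Hsph1 and Cirbp had r = -0.75 in ad-lib (permutation p = 2e-05, adjusted 3.40e-04) with rho = -0.74 (p = 6e-05, adjusted 6.80e-04). In TAN they had r = -0.72 (permutation p = 1e-04, adjusted 8.50e-04) and rho = -0.70 (p = 1.80e-04, adjusted 0.00153). Hspa8 and Cirbp had r = -0.67 in TAN (permutation p = 3.80e-04, adjusted 0.00185) with rho = -0.57 (p = 0.00390, adjusted 0.0166). In ad-lib they had r = -0.52 (permutation p = 0.0101, adjusted 0.0264) and a rho of -0.44 that did not pass (p = 0.0319, adjusted 0.0775). Without the 2 libraries farthest from the median of Cirbp the r of Hsp90aa1 was -0.54 in ad-lib and -0.73 in TAN, that of Hsph1 -0.68 and -0.64, and that of Hspa8 -0.42 and -0.53. Over the 6 times together, libraries high in Hsp90aa1 and Hsph1 were thus low in Cirbp in both diets. The permutations shuffled the 24 libraries of a diet without regard to time, so these p-values do not separate differences between times from those within times.

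Part of these relations lay between the time points and part within them. With the group means removed and values permuted within groups, 4 of 34 relations passed. Hsp90aa1 and Cirbp had r = -0.58 in ad-lib (adjusted permutation p = 0.0300) and had -0.54 in TAN (adjusted permutation p = 0.145). For Hsph1 and Cirbp the value was -0.58 in ad-lib (adjusted permutation p = 0.145) and 0.29 in TAN (adjusted permutation p = 0.451), where the sign had turned. It turned too for Hspa8 and Cirbp in TAN, to 0.42 (adjusted permutation p = 0.248). Hspd1 and Cirbp had -0.72 in TAN (adjusted permutation p = 0.00929) against -0.63 with the time points left in (adjusted permutation p = 0.00404). Hspa8 and Rbm3 had 0.72 in TAN (adjusted permutation p = 0.00929) against 0.12 with them (adjusted permutation p = 0.771). The fourth was that of Rbm3 with Cirbp in ad-lib. All CPM of a library share its total and its tissue make-up.

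Cirbp and Rbm3 moved together over the libraries. In ad-lib they had r = 0.75 (permutation p = 3e-05, adjusted 3.40e-04) and rho = 0.76 (p = 3e-05, adjusted 5.10e-04), and in TAN r = 0.50 (permutation p = 0.0116, adjusted 0.0281) and rho = 0.52 (p = 0.00954, adjusted 0.0329). Without the 2 libraries farthest from the median of Cirbp the TAN r was 0.50 and the ad-lib r 0.74. With group means removed the values were 0.83 in ad-lib (adjusted permutation p = 0.00929) and 0.66 in TAN (adjusted permutation p = 0.0530). Dnajb1 had a positive relation with Rbm3 in TAN, with r = 0.70 (permutation p = 3.30e-04, adjusted 0.00185), but rho = 0.45 did not pass (p = 0.0266, adjusted 0.0696). Its r was 0.38 without the 2 libraries farthest from the median of Rbm3, so it rests on those, which were TAN 8PM libraries 1 and 2. Hsp90aa1 and Rbm3 had the opposite sign in TAN, with r = -0.58 (permutation p = 0.00293, adjusted 0.00906) and rho = -0.47 (p = 0.0229, adjusted 0.0650), and r was -0.59 without the 2 libraries farthest from the median of Rbm3.

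**Figure D5:**
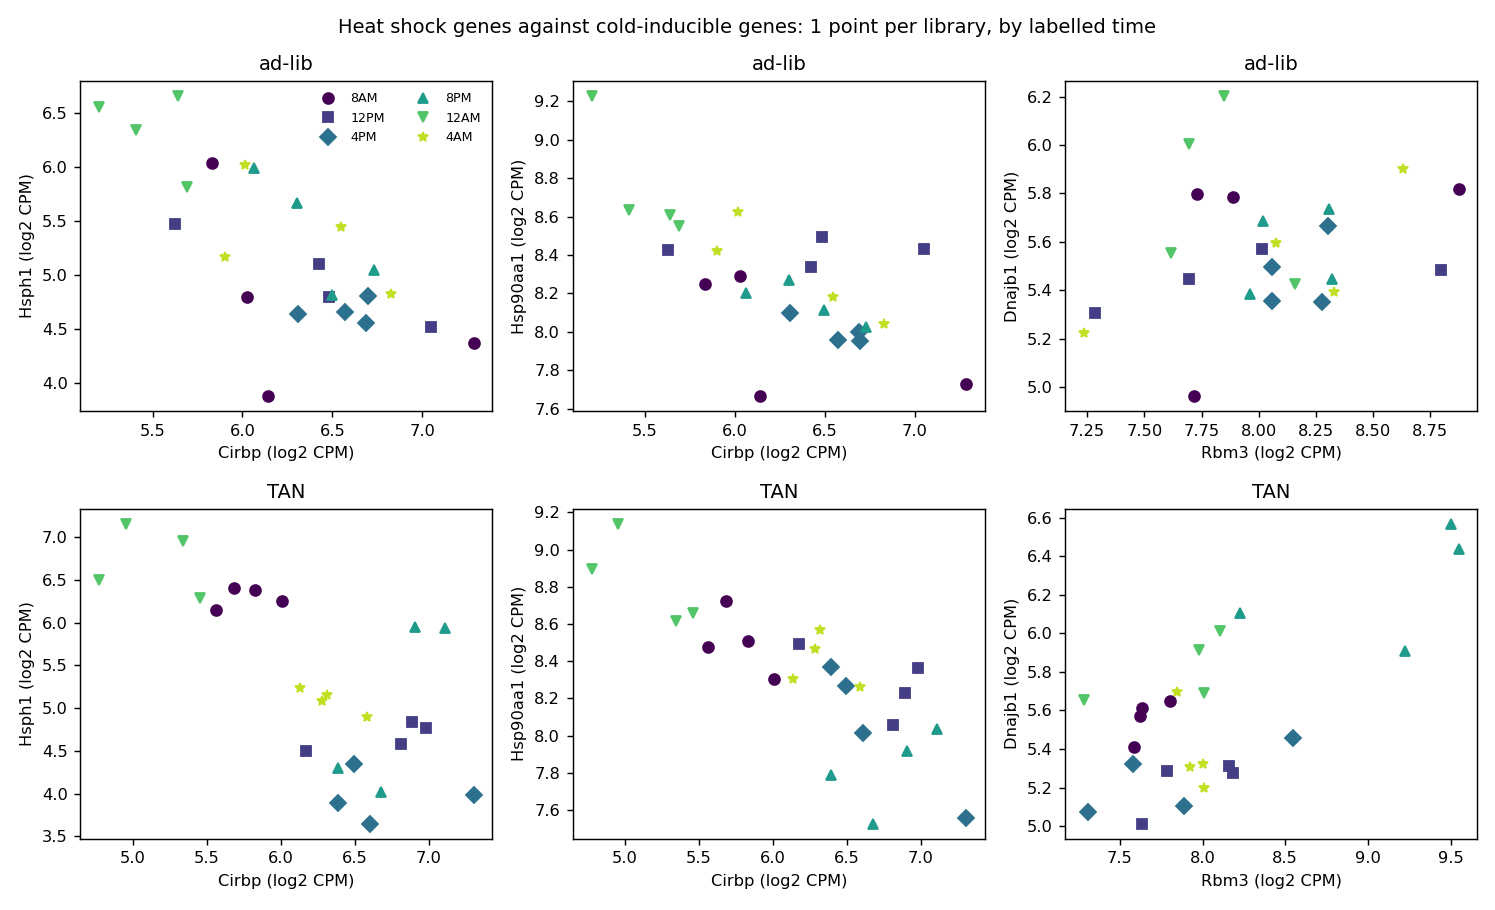
Log2 CPM of a heat shock gene (y axes) against that of a cold-inducible gene (x axes), 1 point per library, with the symbol and colour giving the labelled time; the upper row is ad-lib and the lower row TAN (n = 24 each). Hsph1 and Hsp90aa1 fall as Cirbp rises in both diets (r from -0.71 to -0.81), with the 12AM libraries toward the upper left, and in the right panels Dnajb1 and Rbm3 are both high in 8PM libraries of TAN.

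The wider chaperone network was read from lists of partner genes, of which the 24-h curve in TAN gave the fullest picture. Over all genes 19.8% passed that test, 10.8% with a peak between 8PM and 8AM, which is 54.6% of those that passed, and the list counts are read beside these shares. Of 10 HSP90 co-chaperones, 7 passed, all peaking between 8PM and 8AM, with a median amplitude over the list of 0.31 log2 against 0.40 over all genes. Chordc1, which binds HSP90, peaked at 1.501 h (0.51 log2, edgeR adjusted p = 1.08e-04), Ptges3, the p23 co-chaperone, at 22.3 h (0.42 log2, edgeR adjusted p = 0.00189) and Sugt1 at 20.2 h (0.31 log2, edgeR adjusted p = 0.0102). Of 9 genes of HSP10 and the CCT ring, which folds actin and tubulin, 6 passed and peaked at night. Hspe1, the HSP10 lid of the HSP60 chamber, peaked at 22.0 h (0.53 log2, edgeR adjusted p = 0.00385), and Tcp1 at 21.7 h (0.28 log2, edgeR adjusted p = 0.00686). Of 17 J-domain and HSP70 co-chaperones 5 passed, 4 of them with a peak at night (10.8% of all genes), led by Dnajb6 (peak 23.3 h, 0.50 log2, edgeR adjusted p = 1.58e-04) and Stub1, a ubiquitin ligase that acts on chaperone clients (20.03 h, 0.43 log2, edgeR adjusted p = 0.00106).

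HSP70, HSP110 and HSP90 relatives passed in 4 of 10 cases (19.8% of all genes), 3 of them at night. Hspa4l, an HSP110 gene like Hsph1, peaked later, at 5.37 h (0.70 log2, edgeR adjusted p = 6.63e-04), and Hspa4 at 6.39 h (0.37 log2, edgeR adjusted p = 0.00297). Of 8 other genes responsive to HSF1, 3 passed, with Mrpl18 at 20.3 h (0.45 log2, edgeR adjusted p = 0.00172), Per2, a clock gene that also follows temperature, at 22.4 h (0.995 log2, edgeR adjusted p = 0.0117) and Ubb at 16.6 h (0.36 log2, edgeR adjusted p = 0.0203). The heat shock factor binding protein gene Hsbp1 was the 1 of 5 tested factors and regulators to pass (20.1 h, 0.47 log2, edgeR adjusted p = 0.00909). In the test over the 6 TAN times, which 23.0% of all genes passed, Hspb8 was the 1 of 6 tested small heat shock proteins to pass (1.82 log2, edgeR adjusted p = 0.0235). Over these lists in ad-lib, Fkbp4, an HSP90 co-chaperone (2.55 h, 0.43 log2, edgeR adjusted p = 0.0162), and Per2 (20.4 h, 1.46 log2, edgeR adjusted p = 0.00929) passed.

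Of 10 cold-shock-domain and other RNA-binding genes 3 passed the curve in TAN, where 19.8% of all genes did, Rbm5, Rbmx and Tial1, with peaks at 7.71, 7.66 and 6.60 h against 14.9 h for Cirbp. Of 10 CDC-like kinases, whose activity depends on temperature, and SR splicing factors, their substrates, 3 passed as well, so both counts were near the share of all genes, with Srsf2 at 2.01 h (0.28 log2, edgeR adjusted p = 0.00485) and Srsf1 at 2.56 h (0.27 log2, edgeR adjusted p = 0.00917).

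Between the diets at single times, members of these lists passed at 4PM and 8PM and at no other time. At 4PM, 6 of 10 CDC-like kinases and SR factors fell in TAN, where 8.77% of all genes did, with Clk1 by 0.93 log2 (SE 0.27, edgeR adjusted p = 0.0213) and Srsf2 by 0.50 log2 (SE 0.15, edgeR adjusted p = 0.0254). At the same label 4 of 17 co-chaperones of HSP70 rose (6.54% of all genes rose), Bag1 by 1.16 log2 (SE 0.24, edgeR adjusted p = 0.00684) and Stub1 by 0.75 log2 (SE 0.19, edgeR adjusted p = 0.0125). The mitochondrial HSP70 gene Hspa9 rose by 0.88 log2 (SE 0.25, edgeR adjusted p = 0.0221), beside the mitochondrial Hspd1 above, and the mitochondrial HSP90 gene Trap1 by 0.68 log2 (SE 0.22, edgeR adjusted p = 0.0353). At 8PM, Hspe1 rose by 0.95 log2 (SE 0.27, edgeR adjusted p = 0.0228) and Hspa4l fell by 1.20 log2 (SE 0.29, edgeR adjusted p = 0.0100), while Hspd1 had -0.14 log2 (SE 0.23). At 8PM 3 of 10 RNA-binding genes fell (7.91% of all genes), with Rbm5 by 1.39 log2 (SE 0.35, edgeR adjusted p = 0.0121). The lymphocyte and adipocyte marker levels given above for 4PM also differed between the diets. At 8PM 0 of 10 lymphocyte and 0 of 10 adipocyte markers passed, with list medians of 0.22 and 0.50 log2. Of 6 endothelial markers 3 passed as lower in TAN at 8PM (median -0.96 log2), and of 8 macrophage markers 1 (median -0.88 log2). The part of these cell types was not tested for each gene.

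Among all tested genes, those whose 12 group means of log2 CPM were most like those of Hsph1 were Chordc1 (r = 0.95), Ints13 (0.93), 2810004N23Rik (0.92), Nhlrc2 (0.92) and Spata5 (0.91). Those most like Cirbp were Sec22c (0.95), Mettl27 (0.94), Hic2 (0.92), Gm15793 (0.90) and Cep83os (0.89). Among the members, the 12 means of Hsph1 followed those of Hspa8 (r = 0.96) and ran against those of Cirbp (r = -0.91), while those of Dnajb1 were nearest to those of Rbm3 (r = 0.67). These correlations are descriptions over 12 groups.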

How the data were processed

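Bulk RNA-seq of 48 sWAT libraries was analysed, 4 for each of 2 diets at each of 6 labelled times, with groups taken from the labels. The members and gene lists were chosen with earlier results of these data known. From poly-A RNA and random-hexamer cDNA, paired-end Illumina reads were made, and the authors deposited raw counts per gene for each library. They also deposited FPKM as group means, used here only to compare levels between genes. The submitters' processing notes name TopHat 1.3.3, DESeq2 1.20.0, limma, edgeR, mm9, mm10 and GRCm38 without roles, and the counting tool and strand setting are not given in the sources used here. Starts and ends of 98.1% of the 54532 genes equal those of GENCODE M21 (GRCm38), used for the annotation.

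Tests on the counts used edgeR 4.0.16 (R 4.3.3). Genes passing filterByExpr (minimum count 10) were fitted in 1 robust quasi-likelihood model of the 12 groups with TMM scaling, and p-values were adjusted by Benjamini-Hochberg over all 19977 genes with a call at an adjusted p under 0.05. Contrasts were TAN against ad-lib at each time and on average, F tests over times within a diet, their interaction, and a 24-h cosine and sine contrast within and between diets. The self-test ran on simulated counts. Relations used log2 CPM with a prior count of 2 and 100000 resamples, and limits set by a count of 0 (3 counts) cover counting error only. All 10 members are described, of each list up to 4 genes with the smallest adjusted p in the contrast at hand, and the 5 genes most like Hsph1 and Cirbp. Alternatives used DESeq2 1.42.0, limma voom 3.58.1, other filters and factors, covariates and left-out libraries. Deviations of TAN and ad-lib libraries with the same number and time were correlated over 0.1 in 5 of 24 pairs (median 0.035, highest 0.499). Libraries with the same number were not compared between times. There were 0 identical pairs of libraries, and the labels give no batch. All sample columns were used.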

Additional observations from a re-analysis of the deposited data

Results flagged for a closer look

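In 10 of 120 groups of 4 libraries, 1 library lay far from the other 3 by its gap over the range of the group on the log2 scale, where about 1 group in 20 would do so by chance. Hsp90aa1 in ad-lib at 12AM was at 599.7 CPM in replicate 2 against 375 to 397 CPM in the others. Rbm3 was at 469 CPM in ad-lib 8AM replicate 3 against 210 to 237 CPM, and at 156 CPM in TAN 12AM replicate 4 against 253 to 275 CPM. Dnajb1 was at 31.1 CPM in ad-lib 8AM replicate 1 against 55.0 to 56.4 CPM, and at 32.2 CPM in TAN 12PM replicate 3 against 38.7 to 39.6 CPM. Hspd1 was at 332 CPM in TAN 4AM replicate 2 against 418 to 436 CPM. Hsf1 was at 10.4 CPM in ad-lib 4PM replicate 1 against 18.9 to 20.2 CPM, and at 20.7 CPM in ad-lib 8PM replicate 1 against 14.0 to 14.9 CPM. Hspa1a was at 1.64 CPM in ad-lib 12PM replicate 1 against 0.530 to 0.644 CPM. Hspa1b had a count of 0 in TAN 8PM replicate 1, which allows up to 0.152 CPM, against 1.89 to 2.25 CPM. The TAN effect of Hsph1 differed between times by the interaction test of edgeR (adjusted p = 0.0469, from 1.29 log2 at 8AM to -0.69 at 4PM).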

How the results depend on the processing

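None of the 3 called TAN effects at single times changed direction under any alternative. Ranges over the day, amplitudes and interaction spans have no sign, so a change of direction could not be seen for the other called results. Of 60 combinations of member and time, 3 were called, 2 to 4 with single libraries left out, and 1 (Rbm3 at 8PM) when an absolute log2 fold change above 1 was also asked for. Members varying over the day in TAN numbered 7 (6 to 7 with single libraries left out) and those with a 24-h curve 6 (6 in each such fit). In ad-lib the counts rose from 0 to 2 over times and 1 for the curve with the lymphocyte marker covariate, to 1 and 2 without ad-lib 4AM libraries 1 and 3, and to 2 and 2 without TAN 8PM libraries 1 and 2 (0 to 1 and 0 to 2 with single libraries left out, the latter without ad-lib 4AM replicate 1). Both omissions of library pairs were chosen after seeing the data. Members with a TAN effect differing between times moved from 1 to 0 (no low-count filter), 3 (10 counts or more in each library), 2 (RLE factors), 2 (limma voom), 4 (lymphocyte covariate), 0 (immediate early gene covariate) and 4 (without ad-lib 4AM libraries 1 and 3), with 0 to 4 when single libraries were left out, the highest without TAN 8PM replicate 4. Members whose curve differed between diets moved from 0 to 1 (10 counts or more in each library), 2 (RLE), 1 (limma voom), 3 (lymphocyte covariate), 1 (without the ad-lib 4AM pair) and 1 (without the TAN 8PM pair), with 0 to 2 when single libraries were left out (2 without ad-lib 8AM replicate 1 or 2). A mean effect was called for 1 member without the TAN 8PM pair, Hspd1 (0.29 log2, edgeR adjusted p = 0.0360), and for 0 in each other fit. Relations called fell from 14 to 4 with group means removed, and were 12 to 14 otherwise. The cause of these shifts was not tested.

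With the replicate number as a block the counts were 3 combinations, 7 and 6 members in TAN, 0 and 0 in ad-lib, 1 for the interaction and 0 for the mean and the difference of curves, as without it. The labels do not say that a number marks a shared animal, cage or day. Of 1391 comparisons of a member result with an alternative other than leaving out a single library, 13 lost and 32 gained a call. Fits without single libraries lost further calls, as for the interaction of Hsph1, which was called in 22 of 48 of them. Counts over all genes moved more. Over the alternatives other than leaving out single libraries, TAN effects were called for 0 (lymphocyte covariate) to 4410 genes at 4PM (3057 as reported), 55 (separate fit) to 3884 at 8PM (2333), 0 to 562 (DESeq2) at 12AM (30), 1 to 88 at 12PM (18), 0 to 47 (DESeq2) at 8AM (3), 0 to 4 at 4AM (0) and 561 to 2667 on average (1082). For the day in TAN they were 2554 to 6661 over times (4603) and 2800 to 5664 for the curve (3965), in ad-lib 10 to 32 (11) and 11 to 125 (16), for the interaction 348 to 4390 (1793) and for the difference of curves 2582 to 6244 (4027). The low counts of Hspa1a and Hspa1b (0 to 101 per library) limit what could be detected for them.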
